A study of Mus musculus with 20 samples.

Results

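A set of 7 genes of the GABA system, Gad1, Gad2, Slc32a1, Gabra2, Gabra3, Gabbr1 and Gabbr2, were followed through neuronal differentiation of mouse embryonic stem cells with and without knockdown of HPRT. They were chosen by gene symbol from the deposited tables, and all 7 members were among the 13604 genes, of 37557 shared by all tables, whose typical log2 normalized count was at least 4. RNA-seq was done on 20 libraries of cells differentiating from spherical neural masses (SNMs, floating aggregates of neural precursors). By the study, days count from the SNM stage at day 0 to the differentiated neuronal stage at day 14. The SNMs were made from ESD3 cells, an embryonic stem cell line of mouse strain 129s2/SvPas kept on primary mouse embryo fibroblast feeder cells. Both lines were carried through a dopaminergic neuronal differentiation protocol. The control line carried a viral short hairpin RNA (shRNA) against luciferase and the HPRT knockdown line one against HPRT, so that both lines had been transduced; per the study's methods transduced cells were selected with puromycin, and the methods give a hairpin targeted against the human gene. Each line gave 1 library a day from day 0 to day 4 and on every other day from day 6 to day 14, 10 in all, from RNA that was pooled for the time point, and no day was repeated.

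Neurons that use gamma-aminobutyric acid (GABA) make it from glutamate with the glutamate decarboxylases GAD67, encoded by Gad1, and GAD65, encoded by Gad2. The vesicular inhibitory amino acid transporter encoded by Slc32a1 loads GABA into synaptic vesicles. Released GABA opens GABA-A receptors, which are chloride channels built from subunits such as those of Gabra2 and Gabra3, and acts on GABA-B receptors, G-protein-coupled dimers of the products of Gabbr1 and Gabbr2. These genes are used as markers of inhibitory neurons on the sending side and are shared by many neurons on the receiving side.

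Gad1, Gad2 and Slc32a1 were higher in the HPRT knockdown library on days 0 and 1 and, of the 9 days tested, lower on the other 7. Gabbr2 was higher in the knockdown on days 0 to 4 and lower on days 8 to 14, and Gabbr1 was higher on days 0 to 4 and lower on days 8 to 12. In bulk RNA, fewer cells of a type and less RNA per cell cannot be told apart. Over all 9 days, 2 of the 7 genes, Gad2 and Slc32a1, were lower in the knockdown by limma and none was higher, whereas 26.3% of the 13604 genes were lower and 26.2% higher. The share of the 7 genes that were lower was thus close to the background. In the control line 6 of the 7 genes rose over the course, where 19.7% of all genes rose and 23.9% fell.

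Each ratio is a log2 difference, knockdown minus control, within the table that holds both libraries of a day. Levels are reads divided by a size factor common to the 20 libraries, called normalized reads; the reads were recovered from the deposited log2 values on a scale at which they are multiples of 1/49 of a read. They came out whole for all 20 libraries of Gad1, Gad2, Slc32a1 and Gabra3, for 18 of Gabra2, 14 of Gabbr2 and 13 of Gabbr1, and the others follow from these by their ratios. The levels, and the intervals, rest on that unit and the ratios do not. Size factors ran from 0.782 to 1.52, and read totals were not used here, so that the full depth was unknown. Intervals on a ratio are 95% exact binomial (Clopper-Pearson) intervals on the reads of the 2 libraries and cover counting error only. The tests between the lines and the slopes on day leave out day 6, which the study set aside as discrepant; its values are given. The same library gave slightly different values in different tables for Gabra2, Gabbr1 and Gabbr2, by up to 0.024, 0.077 and 0.034 on the log2 scale, and the table of control days 3 and 4 was at odds with the others by up to 0.16. In the targeted gene, Hprt (Gene ID 15452), the ratio was between -5.004 and -2.53 on the days tested. Its mean was -4.002 ± 0.89 (SD, n = 9 days, limma adjusted p = 1.39e-05). The libraries thus matched their labels on all of these days. The knockdown was weakest on days 0 and 1, with ratios of -2.53 and -2.70. On the later days tested the ratio was between -5.004 and -3.79, and on day 6 it was -3.42. Hprt in the knockdown went from 137.5 normalized reads on day 1 to 44.8 on day 2. Whether the depth of the knockdown bore on the ratios of the GABA genes was not tested.

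Gad1 (Gene ID 14415, NCBIM37 chromosome 2, 70391129 to 70440071, plus strand), the gene of the decarboxylase that supplies GABA throughout the cell, had 151 normalized reads in the control and 508 in the knockdown on day 0. On day 1 the control had 27.8 and the knockdown 289. From day 2 to day 4 the control went from 51.5 to 104, while the knockdown stood at 44.9, 27.6 and 61.4. The knockdown was thus above the control only on the first 2 days sampled. On days 8, 10, 12 and 14 the control held 240, 389, 513 and 456 normalized reads and the knockdown 201, 155, 122 and 122. The ratio was 1.76 (95% interval 1.5 to 2.03) on day 0 and 3.36 (2.81 to 3.95) on day 1, a 10.2-fold excess. It was -0.19 (-0.88 to 0.49) on day 2 and -1.89 (-2.20 to -1.60) on day 14. With early and late days of opposite sign, the mean over 9 days was -0.35 ± 1.83 (SD, n = 9 days) and did not pass the test (limma adjusted p = 0.614; exact two-sided sign-flip permutation p = 0.566).

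Gad2 (Gene ID 14417, chromosome 2, 22477725 to 22549394, plus strand), the gene of the decarboxylase of nerve terminals, ranged less at the start. It had 160 normalized reads in the control and 302 in the knockdown on day 0, and 189 against 272 on day 1. The knockdown then held 53.4, 80.5 and 63.9 on days 2, 3 and 4, against 154, 205 and 196 in the control. From day 8 to day 14 the control lay between 484 and 731, and the knockdown went from 118 down to 57.0. How many of all genes were as far apart on these 4 days, with 1 library per line on each, was not counted. The late ratios were -2.02, -2.89, -3.39 and -3.23, and their mean of -2.88 ± 0.61 (SD, n = 4 days) is a 7.36-fold lower level in the knockdown. On day 6 the knockdown had 261 and the control 221, a ratio of 0.21 (-0.058 to 0.49), which was unlike the days on both sides. The mean over the 9 days tested was -1.62 ± 1.52 (SD; limma adjusted p = 0.0138; exact sign-flip permutation p = 0.0195), lower on 7 of 9 days.

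Slc32a1 (Gene ID 22348, chromosome 2, 158436494 to 158441484, plus strand), a gene of 2 exons, followed Gad2 closely. The control had 72.0 normalized reads on day 0 and 38.9 on day 1, and the knockdown 127 and 67.3. On days 2, 3 and 4 the knockdown held 8, 9 and 6 reads before scaling, against 34, 92.0 and 67 in the control, so that the intervals of these ratios were wide. On day 4 the ratio was -3.14 (-4.63 to -1.94). From day 8 on the control held between 246 and 310 normalized reads and the knockdown between 21.8 and 56.1. The late ratios of -2.32, -2.88, -3.84 and -3.40 averaged -3.11 ± 0.65 (SD, n = 4 days), an 8.63-fold lower level. The mean over 9 days was -2.07 ± 1.71 (SD; limma adjusted p = 0.00739; exact sign-flip permutation p = 0.0156), lower on 7 of 9 days, and lower on day 6 as well at -1.55. For both called genes the adjusted p stayed under 0.05 under each alternative run, from 0.00383 to 0.0414 for Gad2 and from 0.0022 to 0.0349 for Slc32a1, except that a log2 count of at least 8 left both untested.

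**Figure D1:**
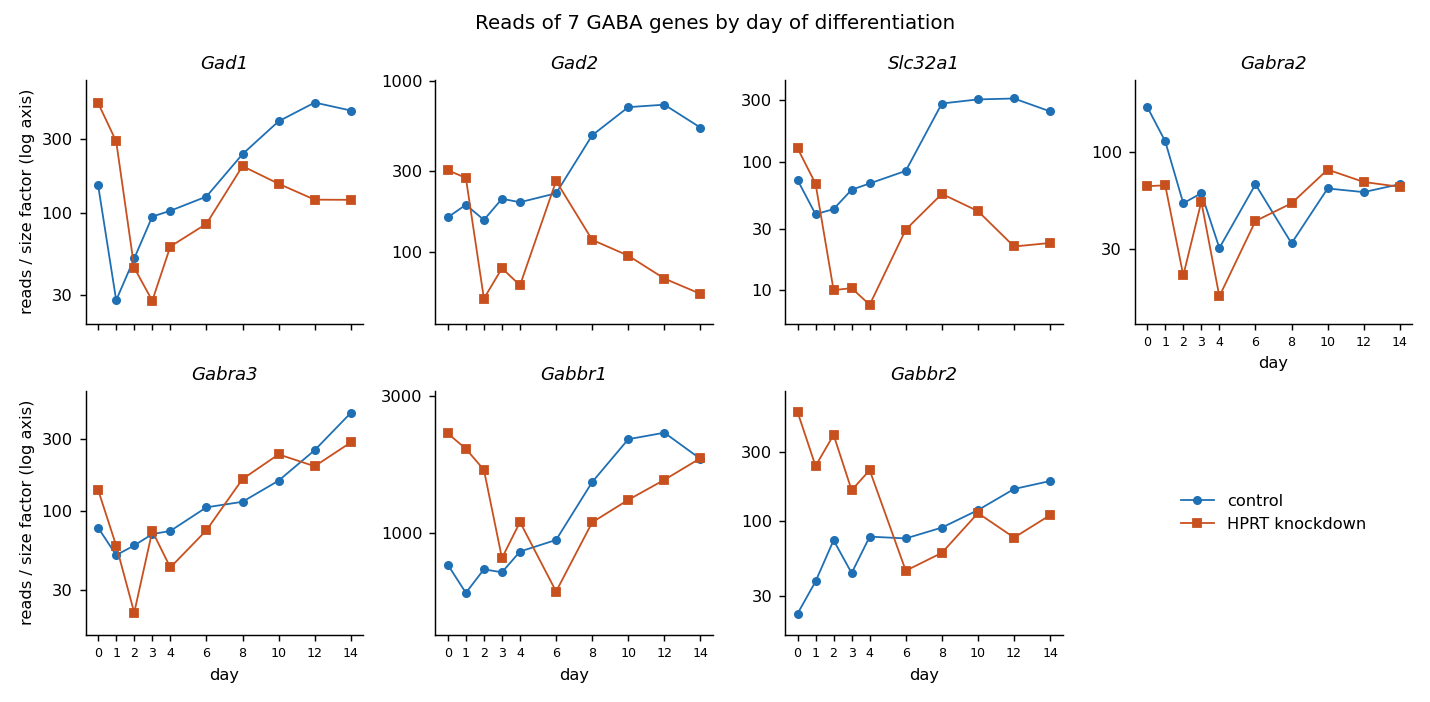
Normalized reads (reads over the size factor, log axis, each panel with its own range) of the 7 genes by day, 1 library per point, control as blue circles and HPRT knockdown as orange squares. Gad1, Gad2 and Slc32a1 start higher in the knockdown and end higher in the control, and Gabbr2 in the knockdown drops from 576 on day 0 to 110 on day 14.

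The promoter windows of the 3 genes of the sending side are shown because these genes moved together, and that of Gabbr2 because it had the largest single ratio. Each is the 250 bases before the annotated start from RefSeq on GRCm38.p6, a later build than that of the tables, written 5′ to 3′ on the strand of the gene, with each CANNTG (the E-box core bound by basic helix-loop-helix factors) in capitals. The windows are chr2:70561879-70562128 on the plus strand for Gad1, chr2:22622077-22622326 on the plus strand for Gad2, chr2:158610508-158610757 on the plus strand for Slc32a1 and chr4:46991715-46991964 on the minus strand for Gabbr2.
Gad1: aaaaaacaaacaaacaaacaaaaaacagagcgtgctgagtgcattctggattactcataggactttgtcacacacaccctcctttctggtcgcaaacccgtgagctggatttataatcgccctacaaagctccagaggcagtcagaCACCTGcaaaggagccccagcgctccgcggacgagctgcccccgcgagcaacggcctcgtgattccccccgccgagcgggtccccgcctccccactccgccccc
Gad2: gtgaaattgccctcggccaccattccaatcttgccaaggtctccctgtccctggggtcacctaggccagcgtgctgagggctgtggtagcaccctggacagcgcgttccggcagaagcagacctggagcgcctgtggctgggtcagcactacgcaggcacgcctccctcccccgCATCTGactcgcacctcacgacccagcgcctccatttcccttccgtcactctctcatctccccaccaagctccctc
Slc32a1: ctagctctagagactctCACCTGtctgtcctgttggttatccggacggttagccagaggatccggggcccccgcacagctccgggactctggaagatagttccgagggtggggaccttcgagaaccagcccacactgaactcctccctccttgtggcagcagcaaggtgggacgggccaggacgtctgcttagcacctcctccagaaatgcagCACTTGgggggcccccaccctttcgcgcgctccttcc
Gabbr2: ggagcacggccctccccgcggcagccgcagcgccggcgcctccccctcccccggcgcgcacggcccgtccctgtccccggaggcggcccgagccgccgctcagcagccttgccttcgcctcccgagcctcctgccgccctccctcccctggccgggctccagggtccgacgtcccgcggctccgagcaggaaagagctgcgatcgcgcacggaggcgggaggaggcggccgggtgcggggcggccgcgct

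CANNTG stood once in the windows of Gad1, Gad2 and Gabra2, 2 times in that of Slc32a1 and in none of those of Gabra3, Gabbr1 and Gabbr2, and 66.2% of 32851 windows of the same length held it on either strand. TAATTA, a core that many homeodomain factors bind, was in none of the 8 windows of the 7 genes and in 4.84% of all windows. GGGCGG, on either strand, matched once in the windows of Gad1 and Gabra2 and 2 times in each of those of Gabbr1 and Gabbr2, with 32.7% of all windows holding it. TATAAA, on either strand, matched in the windows of Gad1 and Gabra3, once in each, and in 12.4% of all windows. The GC content was 58.0% in the Gad1 window, 64.0% in that of Gad2, 62.4% in that of Slc32a1 and 80.8% in that of Gabbr2, with a median of 52.4% over all windows. These matches describe the letters of the windows only.

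Of the GABA-A subunit genes, Gabra2 (Gene ID 14395, chromosome 5, 71352296 to 71487088, minus strand) encodes the alpha2 subunit, common in the immature forebrain. The control went from 174 normalized reads on day 0 to 113.6 on day 1 and 52.7 on day 2 and was between 30.3 and 66.8 on every later day. The knockdown stood at 65.2 and 65.9 on days 0 and 1, at 21.6 on day 2, and was at 16.6 on day 4 and 80.0 on day 10. The lines differed most at the start, with ratios of -1.40 (-1.79 to -1.02) on day 0 and -1.28 (-2.21 to -0.46) on day 2, and on day 8 the order was turned at 0.73 (0.053 to 1.41). The interval took in 0 on 5 of the 10 days. The mean of -0.37 ± 0.75 (SD, n = 9 days) did not pass the test (limma adjusted p = 0.202).

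Gabra3 (Gene ID 14396, chromosome X, 69678020 to 69902187, minus strand), the gene of the alpha3 subunit, was highest on day 14 in both lines. The control went from 77.4 normalized reads on day 0 to 51.0 on day 1 and then up to 446 on day 14. The knockdown went from 138 on day 0 to 21.2 on day 2 and up to 284 on day 14. The ratio changed sign repeatedly, from 0.85 (0.45 to 1.26) on day 0 to -1.47 (-2.36 to -0.64) on day 2, 0.58 (0.29 to 0.88) on day 10 and -0.64 (-0.86 to -0.43) on day 14. Its mean of -0.12 ± 0.76 (SD, n = 9 days) did not pass the test (limma adjusted p = 0.685). Among the 7 genes it was the one whose ratio had the slope over days nearest to 0.

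Gabbr1 (Gene ID 54393, chromosome 17, 37182911 to 37212012, plus strand) encodes the subunit that binds GABA in the GABA-B receptor and was the most abundant of the 7 genes per length. The knockdown held 2223 normalized reads on day 0 and the control 773. By day 3 the knockdown was at 816 and the control at 728. The control then climbed to 2236 on day 12, while the knockdown was at 623 on day 6 and at 1822 on day 14. The ratio was 1.54 (1.42 to 1.66), 1.65 (1.52 to 1.78) and 1.16 (1.02 to 1.31) on days 0, 1 and 2, and -0.45, -0.70 and -0.55 on days 8, 10 and 12. On day 14 it was 0.015 (-0.077 to 0.11). The early excess was thus 2.24 to 3.13-fold and the late deficit smaller. The mean of 0.35 ± 0.90 (SD, n = 9 days) did not pass the test (limma adjusted p = 0.298).

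Gabbr2 (Gene ID 242425, chromosome 4, 46675190 to 47004745, minus strand) encodes the subunit that couples the GABA-B receptor to G proteins. On day 0 it held 22.5 normalized reads, from 20.9 reads, in the control and 576, from 795 reads, in the knockdown. This was a ratio of 4.69 (4.07 to 5.39), or 25.9-fold, the largest of the 70 ratios of the 7 genes. The ratio was 2.65 (2.16 to 3.16) on day 1, 2.45 (2.05 to 2.89) on day 2, 1.92 (1.48 to 2.36) on day 3 and 1.54 (1.14 to 1.94) on day 4. On day 6 it was -0.77 (-1.37 to -0.21), as the knockdown dropped from 226 to 44.9 normalized reads between days 4 and 6. From day 8 on the control went from 89.7 to 190 and the knockdown lay between 59.8 and 113. The late ratios of -0.57, -0.063, -1.13 and -0.78 averaged -0.64 ± 0.45 (SD, n = 4 days). The mean over 9 days, 1.19 ± 1.96 (SD), did not pass the test (limma adjusted p = 0.112; exact sign-flip permutation p = 0.105), and without the replicate block, with the 9 libraries of each line compared as 2 groups, it did (limma adjusted p = 0.0487).

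**Figure D2:**
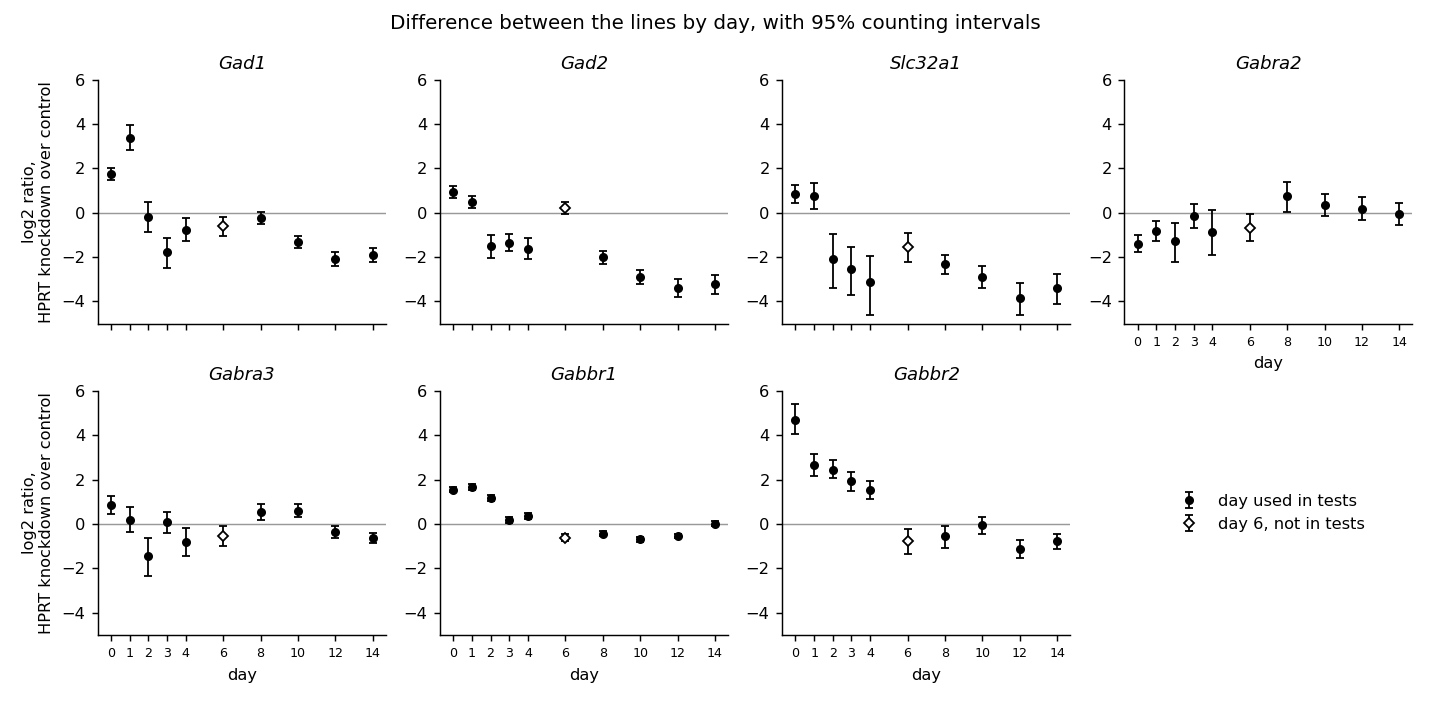
Log2 ratio of the HPRT knockdown over the control by day for each gene, with 95% counting intervals as bars; filled circles are days used in tests and the open diamond is day 6. Gad2 and Slc32a1 fall below 0 from day 2 on except for Gad2 on day 6, and Gabbr2 falls from 4.69 on day 0 to below 0 from day 6 on.

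Day by day, at a cut of 1.5-fold and with no test, 15 of the 70 gene and day pairs of the 7 genes were higher in the knockdown (21.4%, against 18.3% over all genes and days) and 34 were lower (48.6%, against 17.9%). The libraries of a day are shared by the 7 genes, so that these pairs are not independent. Of the 7 genes only Gabbr1 had a typical log2 count of at least 8, as did 8247 of the 13604 genes. The share among genes of like level was not counted. On day 0 the count was 6 higher and 1 lower, where 22.3% of all genes were higher and 19.4% lower. On day 1 it was 4 higher and 1 lower (all genes 21.1% and 24.4%), and on day 2 it was 2 higher and 4 lower (17.2% and 17.1%). On day 14 none was higher and 5 were lower (18.4% and 18.9%). The one gene below the control on day 0 was Gabra2.

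The change of the ratio with time was tested as its slope on day, knockdown minus control; a falling ratio can bring the lines closer together or move them apart. The ratio fell for 3 of the 7 genes and rose for none, where 6.62% of all genes fell and 7.43% rose. Gabbr2 fell by 0.35 per day (SE 0.048; limma adjusted p = 0.00609), Gad2 by 0.27 (SE 0.043; limma adjusted p = 0.00955) and Gabbr1 by 0.14 (SE 0.035; limma adjusted p = 0.0292). Gabbr1 lost its call without day 0, 1, 2, 10 or 12, with adjusted p values by limma up to 0.0827. Slc32a1 had a slope of -0.25 (limma adjusted p = 0.0522), Gad1 of -0.25 (limma adjusted p = 0.0752) and Gabra2 of 0.11 (limma adjusted p = 0.0551); these did not pass. On log2(day + 1) in place of day all 3 passed, so that 6 of the 7 genes were then called, where 1649 of the 13604 genes were. On day itself Slc32a1 passed without day 3 or day 4, Gad1 without day 3 and Gabra2 without day 8. Gabra3 had a slope of -0.013 (limma adjusted p = 0.889).

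Within the control line the slopes of Gad1 (0.25 log2 units per day, SE 0.049), Slc32a1 (0.22, SE 0.037), Gabra3 (0.20, SE 0.023), Gad2 (0.17, SE 0.023), Gabbr2 (0.17, SE 0.025) and Gabbr1 (0.13, SE 0.017) all passed, with limma adjusted p values of 0.00428, 0.00216, 0.000658, 0.00107, 0.00128 and 0.000922. Gabra2 had a slope of -0.045 (SE 0.049; limma adjusted p = 0.481). The 6 calls were made without each day in turn as well. From day 0 to day 14 the normalized reads of the control grew 8.43-fold for Gabbr2, 5.76-fold for Gabra3, 3.42-fold for Slc32a1, 3.35-fold for Gad2, 3.02-fold for Gad1 and 2.34-fold for Gabbr1. For Gabra2 the control held 0.38 of its day 0 level on day 14.

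Within the HPRT knockdown line 1 of the 7 genes fell and none rose, where 5.49% of all genes fell and 7.56% rose. The gene was Gabbr2, with a slope of -0.17 (SE 0.042; limma adjusted p = 0.0331), whose call was lost with day 6 kept, with no filter, or without day 0, 2, 4, 10, 12 or 14, with limma adjusted p values up to 0.0923. Gad2 had a slope of -0.10 (SE 0.052; limma adjusted p = 0.216), and those of Gad1 (-0.010), Slc32a1 (-0.029) and Gabbr1 (-0.011) were smaller than their SE. Gabra2 had a slope of 0.054 (SE 0.049; limma adjusted p = 0.471). Gabra3 had a slope of 0.18 (SE 0.057; limma adjusted p = 0.0667) and passed without day 0 at 0.24 (limma adjusted p = 0.0148). On day 14 the knockdown held 0.183 of its day 0 level for Slc32a1, 0.189 for Gad2, 0.19 for Gabbr2 and 0.24 for Gad1. For Gabbr1 it held 0.82, for Gabra2 0.99 and for Gabra3 2.06 of that level.

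**Figure D3:**
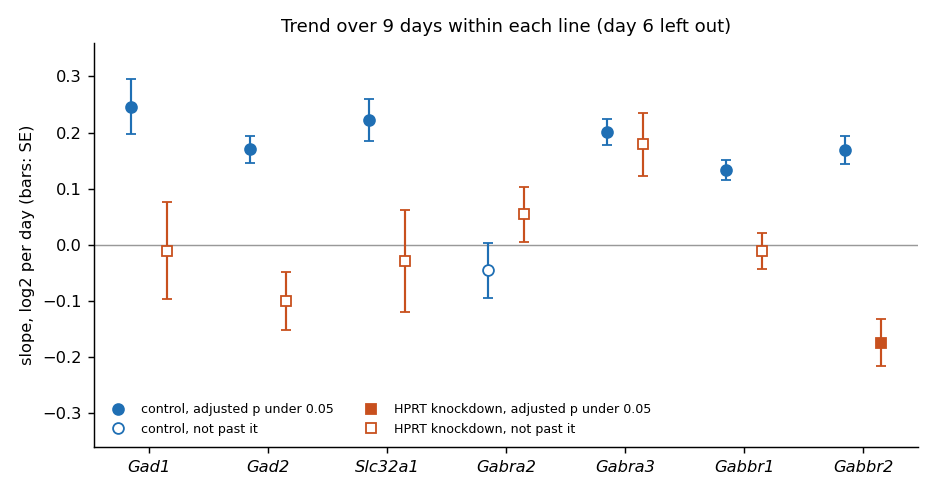
Slope of the log2 value on day, in log2 units per day, for each gene in the control (blue circles) and the HPRT knockdown (orange squares) over 9 days, with bars of 1 SE; filled symbols are past a limma adjusted p of 0.05. The control slopes of all genes but Gabra2 lie between 0.13 and 0.25, and the knockdown slope of Gabbr2 lies at -0.17.

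Steps between consecutive days of at least 2-fold, counted with no test, were 3 up and 3 down among the 63 steps of the 7 genes in the control (4.76% each, against 3.56% up and 2.69% down over all genes). In the knockdown there were 8 up and 12 down (12.7% and 19.0%, against 4.88% and 5.13%). Of these, 7 of the 20 in the knockdown and 4 of the 6 in the control led into or out of day 6, the day left out of tests. In each line 14 of the 63 steps touch that day, and the share of all genes at those steps was not counted. Nor was the share of such steps among genes of like level. The largest steps of the knockdown came between days 1 and 2, with log2 differences of -2.76 for Slc32a1, -2.697 for Gad1 and -2.36 for Gad2. Those of Gabra2 (-1.62), Gabra3 (-1.48) and Gabbr1 (-0.25) had the same sign, and that of Gabbr2 (0.71) did not. In the control the largest was that of Gad1 between days 0 and 1, at -2.46, and Slc32a1 stood at 1.77 between days 6 and 8.

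Levels between genes were compared per kb of merged exons of GENCODE vM1, as the mean log2 normalized reads per kb over the 10 days. In the control the order was Gabbr1 at 7.15 ± 0.70 (SD over 10 days), Gad2 at 5.67 ± 0.91, Slc32a1 at 5.30 ± 1.22, Gabra3 at 4.81 ± 0.99, Gabra2 at 4.73 ± 0.75, Gad1 at 4.30 ± 1.38 and Gabbr2 at 3.67 ± 0.96. In the knockdown Gabbr1 was again first at 7.40 ± 0.58, followed by Gabbr2 at 4.67 ± 1.19, Gabra3 at 4.65 ± 1.202, Gabra2 at 4.33 ± 0.76, Gad2 at 4.23 ± 0.98, Gad1 at 3.93 ± 1.26 and Slc32a1 at 3.29 ± 1.32. Only Gabbr1 stood apart from its neighbor in the order by more than these SDs; the others lay within the spread over days of the next.

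Within each natural pair of genes the balance was followed per kb, for 3 pairs set up after the values had been seen. Gad1 over Gad2 had a median of 0.416 in the control (0.113 to 0.726) and of 1.03 in the knockdown (0.253 to 1.65), and was above the control in the knockdown on 8 of the 9 days tested, by 1.27 ± 0.88 on the log2 scale (exact sign-flip permutation p = 0.00781, 0.0234 when adjusted over the 3 pairs). On days 8 to 14 it was between 1.25 and 1.65 in the knockdown and between 0.381 and 0.654 in the control. Gad2 was thus the more reduced decarboxylase gene late in the knockdown. Gabbr1 over Gabbr2 had a median of 11.2 in the control and 7.37 in the knockdown and differed by -0.84 ± 1.24 on the log2 scale (exact permutation p = 0.0742, adjusted 0.111), and Gabra2 over Gabra3 by -0.25 ± 0.89 (exact permutation p = 0.508).

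The 7 genes were also compared with each other and with all genes by the Pearson correlation of their log2 profiles over the 20 libraries, as a description, since the libraries share days, lines and size factors. Gad2 and Slc32a1 were alike at 0.917, Gad1 and Slc32a1 at 0.803, Gad1 and Gabbr1 at 0.727, Gabbr1 and Gabbr2 at 0.715, Gad1 and Gad2 at 0.673 and Gad1 and Gabra3 at 0.67, while Gabra2 and Gabbr2 stood at -0.457. Among the 13604 genes those most like Gad1 were Syp (0.957), the gene of the vesicle protein synaptophysin, Caly (0.935) and Trank1 (0.932). Those most like Gad2 were Inpp5f (0.953), Slc32a1 and Ptpn5 (0.914), and those most like Slc32a1 were Ptpn5 (0.926), Tmem59l (0.923) and Gad2. Gabra3 was most like Adap1 (0.951), Syt16 (0.928) and Faim2 (0.924), Gabbr1 like Bzrap1 (0.951), Dtx1 (0.922) and Nrxn3 (0.913), and Gabbr2 like Klhl23 (0.921), Mapk8ip1 (0.885) and Adcyap1r1 (0.881). The likeness was weaker for Gabra2, whose nearest were Tigd2 (0.81), 6330406I15Rik (0.738) and Mmp3 (0.733).

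Other genes of the GABA system were taken from lists written by hand, and each count below is to be read against the 26.2% of all genes higher and 26.3% lower and a median ratio of 0.0056 over all genes. Of 17 further GABA-A subunit genes 7 were past the filter, 2 higher and 3 lower in the knockdown, with a median ratio of -0.36. Gabrg1, a gamma subunit found in glia and some neurons, was at 2.26 ± 1.08 (SD, n = 9 days; limma adjusted p = 0.000447). Gabrb2, a beta subunit, was lower at -1.49 ± 0.67 (limma adjusted p = 0.000358).

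All 4 of the genes of GABA uptake and breakdown past the filter, of 6 listed, were higher, with a median ratio of 1.498. Among these were the GABA transporter gene Slc6a11 at 1.91 ± 1.797 (limma adjusted p = 0.0138), the transaminase gene Abat at 1.28 ± 0.37 (limma adjusted p = 5.97e-05) and the succinate semialdehyde dehydrogenase gene Aldh5a1 at 0.55 ± 0.37 (limma adjusted p = 0.00403). The ratio of 2 of the 4 fell over days, that of Slc6a11 by 0.31 per day (limma adjusted p = 0.0106). The median of the 4 genes was between 1.785 and 2.197 on days 0 to 4. It was -0.95 on day 6 and between -0.076 and 0.64 on days 8 to 14, so that most of the excess was early.

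Of 12 genes that anchor or move GABA receptors all were past the filter, 9 higher and 1 lower, with a median of 0.39. Plcl1 was the highest at 1.55 ± 0.63 (limma adjusted p = 0.000211), Plcl2 at -0.45 ± 0.32 was lower (adjusted p = 0.00546), and Gabarapl2 was the least raised of the called genes at 0.30 ± 0.29 (adjusted p = 0.0306). Of the 8 genes of GABA-B auxiliary subunits and of GIRK channels 3 were past the filter, with a median of 0.15, of which Kctd12b was higher at 1.21 ± 0.92 (limma adjusted p = 0.00497). The 2 chloride cotransporter genes, which set the direction of the GABA-A current, had a median of 0.60, and Slc12a2 (NKCC1) was higher at 0.95 ± 0.59 (limma adjusted p = 0.00191), with a ratio that rose by 0.099 per day (limma adjusted p = 0.022). Slc12a5 (KCC2) did not pass at 0.25 ± 1.66 (limma adjusted p = 0.699), and its ratio fell by 0.30 per day (limma adjusted p = 0.00544).

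The transcription factors of GABAergic fate divided. Of 23 listed, 16 were past the filter, 6 higher and 6 lower, with a median ratio of -0.16. Nkx2-1, a factor of the ventral forebrain, was the highest at 5.25 ± 2.37 (limma adjusted p = 0.000319). Lhx1 at -3.33 ± 1.36 and Sp8 at -3.12 ± 0.67 were the lowest (limma adjusted p = 0.000199 and 1.28e-05). Of 10 genes of interneuron peptides and calcium-binding proteins 6 were past the filter, 1 higher and 4 lower, with a median of -1.67. Somatostatin, Sst, was at -4.73 ± 1.67 and calretinin, Calb2, at -4.45 ± 1.26 (limma adjusted p = 0.000105 and 3.76e-05), both lower on 9 of 9 days, and Reln was higher at 0.80 ± 0.75 (limma adjusted p = 0.0148).

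Markers of other cells moved with the lines as well, and their part in the values of the 7 genes was not tested. Of 10 pan-neuronal markers past the filter, of 12 listed, 7 were lower and none higher, with a median of -1.55. The median of these markers was -0.035, -0.53, -2.01, -1.54 and -0.37 on days 0 to 4 in turn and between -2.69 and -2.003 on days 8 to 14. Nefl at -2.85 ± 1.301 and Stmn2 at -2.01 ± 1.003 were the lowest, and the called ones nearest 0 were Syt1 at -0.95 ± 1.00 and Nefm at -1.21 ± 1.44 (limma adjusted p = 0.000345, 0.000553, 0.0234 and 0.0383). Rbfox3, a marker of mature neurons, was under the filter. The deficit of Gad2 and Slc32a1 on days 8 to 14 thus stood beside lower pan-neuronal markers. On each of those days both genes were further below the control than the median of these markers. On day 8 Gad2 was so only slightly, at -2.016 against -2.003. On day 4 both genes were further below the control than the median of these markers was. On days 2 and 3 Gad2 (-1.52 and -1.35) was less far below the control than that median, and Slc32a1 (-2.09 and -2.55) further. On days 0 and 1 both genes were above the control and that median was not above 0. The single markers past the filter were spread on day 0, from -2.16 for Nefm to 1.11 for Syp. Whether the 2 genes followed the neuronal markers was not tested.

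Of 7 glutamatergic markers 4 were past the filter, with a median of -0.31, and Slc17a6, the gene of the vesicular glutamate transporter VGLUT2, was lower at -2.98 ± 1.796 (limma adjusted p = 0.00139). Of 5 glycinergic markers the 2 past the filter, with a median of 1.54, were higher, Slc6a9 at 1.56 ± 0.31 and Glrb at 1.53 ± 0.68 (limma adjusted p = 1.34e-05 and 0.000324), both also used outside glycinergic neurons, and Slc6a5, the transporter gene that defines such neurons, was under the filter. The 3 under the filter had mean ratios below 0, of -4.25 for Glra1, -3.45 for Slc6a5 and -1.55 for Glra2, and were not tested. All 8 astrocyte and radial glia markers were past the filter, 7 higher and none lower with a median of 1.12 (S100b at 3.63 ± 3.22 and Aqp4 at 1.35 ± 0.95 the highest, Glul at 0.42 ± 0.26 and Slc1a3 at 0.73 ± 0.45 the lowest of those called by limma). Of 10 oligodendrocyte lineage markers 5 were higher and none lower, with a median of 2.21, Olig2 at 3.02 ± 1.44 and Olig1 at 2.51 ± 1.02 the highest and Pdgfra at 0.73 ± 0.69 and Cnp at 2.24 ± 1.95 the lowest of those called, and 6 had a rising ratio. All 8 pluripotency markers were lower, with a median of -2.71, from -3.43 ± 2.67 for Zfp42 and -3.38 ± 2.40 for Tdgf1 to -2.44 ± 1.35 for Esrrb and -1.06 ± 0.72 for Klf4. Of 8 fibroblast feeder markers, with a median of -0.38, 2 were lower, Lum at -1.07 ± 1.15 and Postn at -0.70 ± 0.68, and none higher by limma. Summed levels of these lists are not given, since the tables hold differences between libraries.

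**Figure D4:**
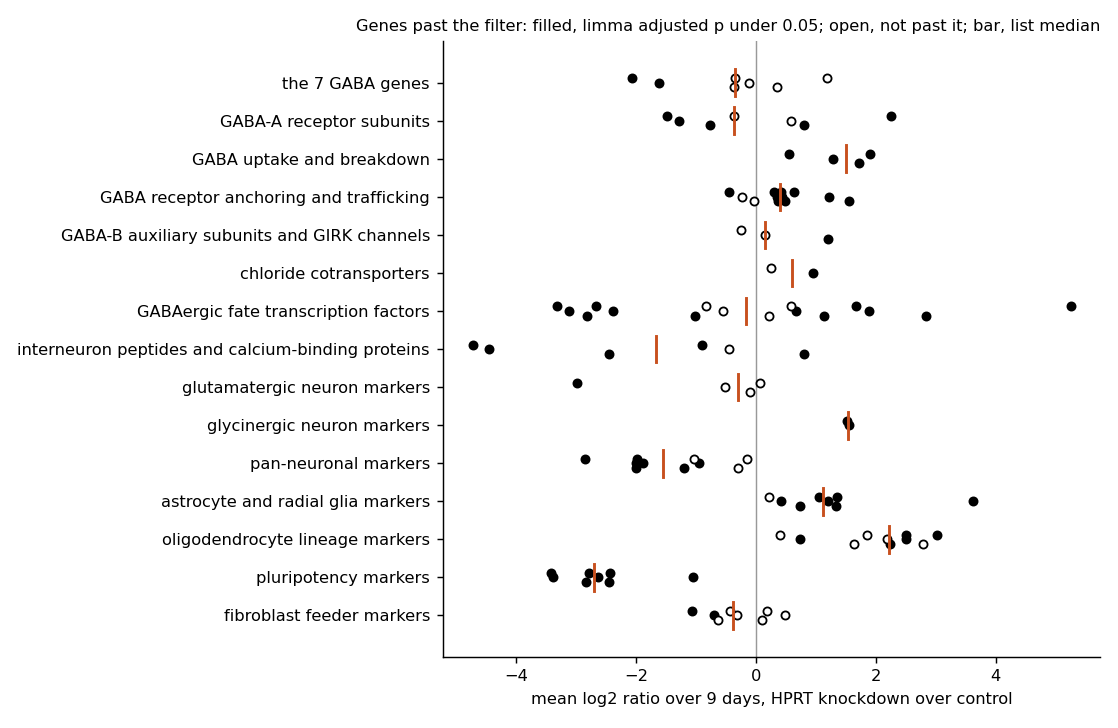
Mean log2 ratio over 9 days, HPRT knockdown over control, of each gene past the filter in the 7 GABA genes and in the 14 lists; filled circles are past a limma adjusted p of 0.05, open ones are not, and the orange bar is the median of the list. The genes of GABA uptake and breakdown lie to the right with a median of 1.498, and the interneuron peptides and pan-neuronal markers to the left with medians of -1.67 and -1.55.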

How the data were processed

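RNA was measured in 20 libraries, 10 per line; groups came from the sample labels. By the study's methods and processing notes, the authors aligned reads with ELAND in CASAVA 1.8.2 to NCBI37/mm9, took gene values in Avadis NGS and used the DESeq normalization there. The authors deposited 28 tables of log2 values, each value minus the mean of its 2 libraries, so that a pair gives a ratio. Reads of antisense partners were not separated. The design had set the filter at a typical log2 count of at least 4; it was read from the single-precision rounding step of the values. Reads of the 7 genes were recovered as the smallest scale at which most libraries held whole 49ths of a read, on the days whose loops of 4 tables closed within 1e-05. With those reads, 24 to 27 of 27 tables were given back within 1e-05 per gene, and the rounding step was finer than the level allows in at most 1 of 28 tables; 13 of 14 libraries of Gabbr1, and every library used for the others, came out whole. The scale rests on this unit and the ratios do not; days 0 to 2 of Gabbr1 and Gabbr2 and day 0 of Gabra2 follow by their ratios.

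The main test was limma 3.58.1 (R 4.3.3) on the ratio of 9 days against 0, and slopes on day, over 13604 genes, with p-values adjusted by Benjamini-Hochberg and called under 0.05. For the mean of a single gene, or of the balance of a pair, an exact two-sided sign-flip permutation test over 9 days was run, whose smallest p is 0.00391. The days are successive collections of 1 line each, and nothing in the sources says that they were separate cultures, so that p-values measure the spread between days, and what a line owes to HPRT and what it owes to being 1 transduced line cannot be told apart. Tests of a mean take the days as independent, whereas the ratios of Gad2, Gabbr1 and Gabbr2 had a slope on day. Those of Slc32a1, Gad1 and Gabra2 passed on log2(day + 1) but not on day. The p-values of the means, that of Slc32a1 included, do not allow for such slopes. The 2 libraries of a day were paired by collection day, the number that both lines share; their deviations from the mean of their line had r between 0.139 and 0.417 on 8 of the days and -0.0132 on day 0. On simulated tables of this comparison 13547 genes were tested, of which a small part had been changed. Of the changed genes, 93.9% of those at 2-fold and 100% of those at 4-fold were called. The simulated libraries had independent noise and ratios without drift over days. The ratios of the 7 genes had SDs of 0.75 to 1.96, and some drifted, so that these shares do not give the chance of a call for them. The sequencing lane of each library is not given in the sources used here. Named were the 7 genes, Hprt, the 2 highest and 2 lowest called genes of each list, and the 3 genes most like each of the 7; others were added after their values were seen. Some genes that this rule names are not reported here. The genes and lists were chosen with earlier results of these data known. Alternatives were another filter, day 6 kept, centring, single days left out, no replicate block, neighboring tables, a robust prior, the permutation test per gene and log2(day + 1). Python 3.11.15 with numpy 2.4.6, pandas 2.3.3, scipy 1.17.1 and matplotlib 3.10.9 was used.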

Additional observations from a re-analysis of the deposited data

Results flagged for a closer look

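Of the 7 genes, 3 had a slope of the ratio that differed from 0, so that the lines changed differently over the days: Gabbr2 at -0.355 log2 units per day, Gad2 at -0.269 and Gabbr1 at -0.144. The test was the limma slope over 9 days with adjustment over 13604 genes. None of the 7 genes had a day that stood apart from its other 9 ratios by Dixon's test; the largest share of the range taken by a gap was 0.351, for Gabbr2, under the 95% limit for 10 values.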

How the results depend on the processing

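The count of these genes called between the lines was 2 with each day left out in turn, with day 6 kept, with no filter, with the median set to 0, with a robust prior, through neighboring tables and by the permutation test per gene, and 3 without the replicate block. With a log2 count of at least 8, Gabbr1 alone was tested: 0 calls between the lines and 0 for the knockdown trend, 1 for the control trend and 1 for the ratio trend. The knockdown trend gave 0 calls with day 6 kept or with no filter, and 0 to 1 with single days left out. The ratio trend gave 2 to 5 calls with single days left out (5 without day 3) and 6 on log2(day + 1). Steps of 1.5-fold numbered 22 in the control and 33 in the knockdown. Ratios of at least 1.5-fold numbered 49 of 70, 44 of 63 without day 6 and 33 of 70 at 2-fold. For steps of 1.5-fold, ratios of 2-fold and ratios without day 6 the share of all genes was not counted. The cause of these changes in the counts was not tested. With single days left out, values near 0 that had not passed changed sign: Gabra3 between the lines (-0.24 to 0.049), the knockdown slopes of Gad1 (-0.046 to 0.0704), Slc32a1 (-0.065 to 0.053) and Gabbr1 (-0.038 to 0.012), the control slope of Gabra2 (-0.078 to 0.0012) and the ratio slope of Gabra3 (-0.045 to 0.023). The uncalled means between the lines moved from -0.81 (without day 1) to -0.13 (without day 12) for Gad1 and from 0.75 (without day 0) to 1.48 (without day 12) for Gabbr2. Over all genes, 1911 ratio slopes were called (605 to 1666 with single days left out, 1066 with day 6 kept and 1649 on log2(day + 1)), 1776 knockdown slopes (169 to 2961, and 126 on log2(day + 1)) and 5933 control slopes (3930 on log2(day + 1)). Joining all tables but that of control days 3 and 4, chosen after seeing the data, gave 6 and 1 calls for the control and knockdown trends. Reads of 6 to 9 for Slc32a1 in the knockdown on days 2 to 4 limit those ratios.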
